A study of Mus musculus with 56 samples.

Results

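Cultured mouse cortical neurons treated with DRB at 100 µM were compared with neurons given its vehicle. The comparison was chosen by sample title and holds 2 of the 56 arrays of the study, 1 for DRB and 1 for vehicle. Both arrays are MoGene 2.1 ST whole-transcript arrays, of which the study has 34. The cells of both arrays came from C57BL6 embryos of embryonic day 13 to 15, with no engineered allele named, and were grown for 7 days in vitro before the drug or vehicle was added. The labels give 24 or 72 h of treatment without saying which applies to DRB, and do not name the vehicle's solvent. The free-text description of both samples names another drug, ICRF-193, so the assignment rests on the titles and treatment labels. With 1 array a group there was no replicate check, no p-value and no error for any difference, and every value below describes these 2 libraries.

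DRB is a ribonucleoside analogue that inhibits CDK9, the kinase of P-TEFb, and also casein kinase 2. P-TEFb phosphorylates RNA polymerase II and its pausing factors and so releases polymerase that has stopped shortly after the start of a gene. A large part of the P-TEFb in a cell is held inactive by the 7SK RNA together with HEXIM1 and LARP7. In neurons, synaptic activity switches on a set of short immediate early genes whose messages are made and lost quickly, which makes them a common readout of transcription.

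The set normalized with DRB, judged by mean intensities of 201.5 to 211, holds 6 arrays: DRB, hydrogen peroxide, paraquat, the DRB vehicle and 2 vehicles of the oxidants. Oxidant vehicle 1 stood apart from the other vehicles. Its excitatory marker Slc17a7 was at a log2 intensity of 5.10, against 9.70 in the DRB vehicle and 9.74 in oxidant vehicle 2, and its fibroblast markers summed to an intensity of 39370, against 17831 in the DRB vehicle. The spread between cultures was therefore read in both ways. Of 13308 genes kept after leaving out dim ones, 16.6% differed by at least 2-fold between oxidant vehicle 1 and oxidant vehicle 2 (8.35% higher and 8.3% lower), but 0.721% between the DRB vehicle and oxidant vehicle 2 (0.323% higher and 0.398% lower). Neuron identity was present on both arrays of the comparison. The markers shared by all neurons summed to an intensity of 36415 with DRB and 37310 with vehicle, Snap25 was at 12.36 with DRB and 12.22 with vehicle, Gad1 was at 7.93 with DRB and 8.06 with vehicle, and Tubb3 was at 9.61 with DRB and 11.27 with vehicle. Aif1, which defines microglia, was at 4.87 with DRB and 4.48 with vehicle, below the limit of 5.01 set for kept genes.

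Each difference is the log2 intensity with DRB minus that with vehicle, relative to the median of all kept genes. As deposited the median gene was 0.34 lower with DRB, so a difference is 0.34 more than the gap between the 2 printed levels. Higher and lower therefore mean relative to the other genes. A change in the total RNA per cell would not show, since RMA values are on a common scale. In these units 1414 genes (10.6%) were at least 2-fold higher with DRB and 1283 (9.64%) at least 2-fold lower, together 20.3%. The standard deviation of the differences over genes was 0.85, against 0.28 between the DRB vehicle and oxidant vehicle 2 and 0.74 between the 2 oxidant vehicles. At 4-fold, 270 genes were higher and 115 lower. Read as deposited, without the median taken off, 808 were higher and 2499 lower. Of the 1414 higher genes 1293 were above all 3 vehicle arrays of the set, and 1053 of the 1283 lower genes were below all 3. The 3 include the DRB vehicle, by which these genes were called, and oxidant vehicle 2, which lay close to it. These counts were thus partly fixed by the call and give no separate support. Of all kept genes, called or not, 34.5% were above and 33.9% below all 3. Genes just inside the threshold were Nolc1 at 1.003 and Slc44a2 at -1.0003, and just outside it Nfya at 0.9999 and Grip2 at -0.9995.

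**Figure D1:**
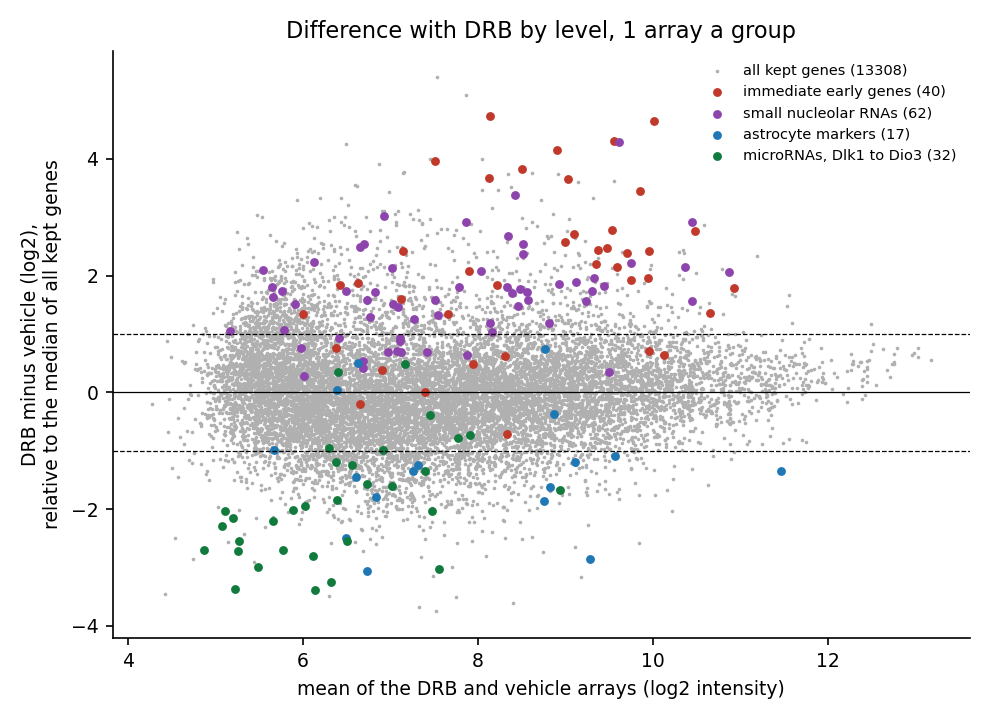
Difference of the DRB array from its vehicle array (log2, relative to the median of all kept genes) against the mean of both arrays (log2 intensity), 1 point a gene. Dashed lines mark 2-fold; the 40 immediate early genes and 62 small nucleolar RNAs lie mostly above, the 17 astrocyte markers and 32 microRNA genes between Dlk1 and Dio3 mostly below.

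The immediate early and activity-regulated genes were the list of mRNAs farthest above the median gene. Of 42 named, 40 were kept and 31 were at least 2-fold higher with DRB, against 10.6% of all kept genes, with a median difference of 2.11. None was at least 2-fold lower. The lowest was Egr3, at -0.72, and 36 of the 40 were above all 3 vehicle arrays. Their intensities summed to 48932 with DRB, 13166 with hydrogen peroxide and 15698 with paraquat, against 12576 with the DRB vehicle, 14159 with oxidant vehicle 1 and 10423 with oxidant vehicle 2. The DRB array was thus the highest of the 6 for the summed list.

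Among single members, Npas4, an activity-dependent transcription factor of neurons, was at 12.16 with DRB, 7.83 with hydrogen peroxide and 8.85 with paraquat, against 7.86, 6.77 and 7.11 in the DRB vehicle and oxidant vehicles 1 and 2. Its difference was 4.65, or 25.1-fold. Fos, a subunit of the AP-1 transcription factor, was at 10.24 with DRB, 6.72 with hydrogen peroxide and 7.83 with paraquat, against 6.76, 6.70 and 5.15 in the same vehicles, a difference of 3.83. For both genes the DRB array lay above the other 5 arrays, which overlapped. Fosb, another AP-1 subunit, differed by 4.74 (10.34 with DRB and 5.94 with vehicle). Gadd45b, a stress-inducible gene, differed by 4.31 (11.54 with DRB and 7.58 with vehicle), and the orphan nuclear receptor gene Nr4a2 by 4.15 (10.81 with DRB and 7.00 with vehicle). Arc, whose protein acts at synapses to remove AMPA receptors, was at 10.69 with DRB and 7.38 with vehicle, a difference of 3.66. Egr1, a zinc finger transcription factor, differed by 2.78 and Bdnf, a neurotrophin gene, by 2.42. Atf3, a stress-induced factor, differed by 3.97 and Ier5 by 3.67. In the topotecan experiment of the study, which has its own vehicle and 6 arrays a group, the same list had a median of 0.13. Npas4 there differed by -1.20 and Fos by -0.26. The difference between the drugs was not tested.

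**Figure D2:**
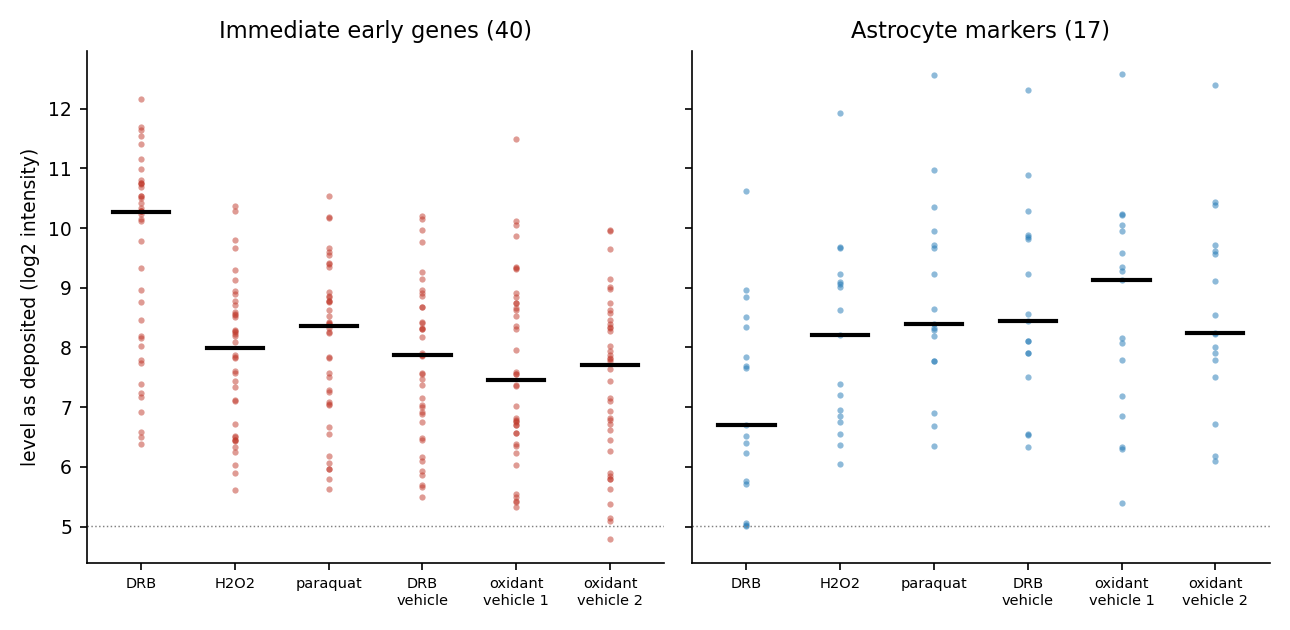
Levels as deposited (log2 intensity) of the 40 immediate early genes and the 17 astrocyte markers on the 6 arrays of the set, 1 point a gene, with a black bar at the median. The dotted line is the limit of 5.01; the DRB array has the highest median of the first list and the lowest of the second.

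The promoters of 3 of these genes and of Hexim1 are shown so that the motifs counted below can be seen. They are the 250 bases before the annotated start, from RefSeq genes of GRCm38.p6, and were chosen after the values were seen. Capitals mark TGACG on either strand (CGTCA when read here), the core of the cyclic AMP response element, and TATAA on the printed strand, the core of a TATA box.
Fos, chr12:85473640-85473889, plus strand: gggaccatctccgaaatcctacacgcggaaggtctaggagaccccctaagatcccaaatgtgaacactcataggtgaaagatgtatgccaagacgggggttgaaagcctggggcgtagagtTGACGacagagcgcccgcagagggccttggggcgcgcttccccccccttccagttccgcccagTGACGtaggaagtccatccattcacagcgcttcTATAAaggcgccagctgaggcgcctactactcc
Npas4, chr19:4989972-4990221, minus strand: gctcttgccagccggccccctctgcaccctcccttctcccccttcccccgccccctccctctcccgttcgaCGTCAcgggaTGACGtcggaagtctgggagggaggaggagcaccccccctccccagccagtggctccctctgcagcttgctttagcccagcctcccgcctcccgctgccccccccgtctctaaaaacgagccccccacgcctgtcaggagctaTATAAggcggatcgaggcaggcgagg
Nr4a1, chr15:101266596-101266845, plus strand: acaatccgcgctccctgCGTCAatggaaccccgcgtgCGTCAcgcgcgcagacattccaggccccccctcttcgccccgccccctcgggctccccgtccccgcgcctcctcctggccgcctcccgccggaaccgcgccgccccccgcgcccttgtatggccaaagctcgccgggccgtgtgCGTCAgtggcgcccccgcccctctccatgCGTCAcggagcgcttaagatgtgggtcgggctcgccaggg
Hexim1, chr11:103116075-103116324, plus strand: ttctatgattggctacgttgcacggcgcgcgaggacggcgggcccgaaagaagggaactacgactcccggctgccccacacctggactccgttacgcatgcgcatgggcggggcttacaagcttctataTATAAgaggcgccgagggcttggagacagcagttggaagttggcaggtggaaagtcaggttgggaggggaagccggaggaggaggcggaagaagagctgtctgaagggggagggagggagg
Fos and Npas4 each hold 2 copies of TGACG and 1 TATAA, Nr4a1 holds 4 copies of TGACG and no TATAA, and Hexim1 holds 1 TATAA and no TGACG. Nr4a1 encodes an orphan nuclear receptor and was at 11.41 with DRB and 8.31 with vehicle, a difference of 3.45. Over the 300 bases from 250 before to 50 after the start, 19 of the 31 immediate early genes with a promoter in the table held TGACG on either strand (61.3%), against 31.1% of 10425 kept genes, and 11 held TATAA on the coding strand (35.5%), against 9.40%. The 6-letter TATAAA stood in 123 of 1024 promoters of genes at least 2-fold higher with DRB, in 36 of 944 (3.81%) of those at least 2-fold lower, and in 490 of all 10425 (4.70%). Among protein-coding genes above the median level, the shares were 8.22% of 304 higher genes, 4.13% of 460 lower genes and 3.56% of all 5006. TGACG stood in 31.3% of the promoters of all higher genes, 21.7% of all lower genes and 31.1% of all kept genes. Among the protein-coding genes above the median level it stood in 49.3% of higher genes, 23.5% of lower genes and 36.0% of all, so the gap between higher genes and the rest depended on level. The same held for CpG dinucleotides, whose median number per promoter was 16 in all higher genes, 19 in all lower genes and 21 in all kept genes, but 26, 19 and 23 among those protein-coding genes above the median level. These shares describe letters in the window and say nothing of binding.

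The genes of P-TEFb itself were placed unevenly. Hexim1, which holds P-TEFb inactive, was at 10.23 with DRB, 7.67 with hydrogen peroxide and 8.35 with paraquat, against 7.80 in the DRB vehicle, 7.86 in oxidant vehicle 1 and 8.24 in oxidant vehicle 2. Its difference from the DRB vehicle was 2.77, or 6.82-fold, and the DRB array was the highest of the 6. Ccnt1, the cyclin partner of CDK9, differed by 1.46 (8.97 with DRB and 7.85 with vehicle) and Cdk9, the kinase, by 1.21 (7.02 with DRB and 6.15 with vehicle). Those were the 3 of 8 kept members past 2-fold. Larp7, which binds 7SK, differed by 0.59 and Mepce, which caps it, by -0.34. The 7SK RNA itself, Rn7sk, differed by 0.76.

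Of 27 kept elongation factors, 2 (7.41%) were at least 2-fold higher, against 10.6% of all kept genes, and none lower, with a median of 0.33. They were Ell2, a subunit of the super elongation complex, which differed by 2.14 (9.78 with DRB and 7.98 with vehicle), and Eaf1, an ELL-associated factor, which differed by 1.19. Of 30 other transcriptional kinases, Mediator and polymerase II subunits, 8 (26.7%) were higher and none lower, with a median of 0.18. The 4 largest were Ccnl1, a cyclin of the CDK11 kinases (2.17), Polr2k, a small polymerase subunit (1.98), Cdk11b (1.74) and the Mediator kinase module gene Med13 (1.65). Polr2a, the largest polymerase II subunit, differed by 0.89. Of the casein kinase 2 subunits, Csnk2a1 differed by -0.54 and Csnk2a2 by 0.60. Of 18 kept SR splicing factors and CLK kinases, 2 (11.1%) were higher, Srsf3 (1.74) and Srsf11 (1.46), and the list's median was 0.61. Most members of these lists thus lay within 2-fold, while single regulators stood well above it.

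Other regulators with unstable messages were higher in part. Of 61 kept, 20 were at least 2-fold higher and 1 lower, with a median of 0.46. Gadd45g, a stress-response gene, differed by 3.74 (10.61 with DRB and 7.22 with vehicle) and Btg1, an antiproliferative gene, by 2.68 (10.00 with DRB and 7.67 with vehicle). Socs2, a suppressor of cytokine signalling, was the 1 lower gene, at -2.19 (7.02 with DRB and 9.55 with vehicle). Myc differed by 0.60 and the survival gene Mcl1 by 0.71, both within 2-fold. Of 34 kept p53 targets 5 (14.7%) were higher and 2 (5.88%) lower, against 10.6% and 9.64% of all kept genes, with a median of 0.10. Cdkn1a, the classical p53-induced cell cycle inhibitor, differed by 0.12 and Mdm2, which degrades p53, by 0.88, whereas Btg2 differed by 2.43 and Pmaip1, a pro-apoptotic BCL2 family gene, by 1.59.

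Stress genes did not move as one group. Of 17 kept heat shock and chaperone genes, 3 were higher and 2 lower. The inducible Hsp70 gene Hspa1b was at 9.97 with DRB, 7.14 with hydrogen peroxide and 6.57 with paraquat, against 6.79 in the DRB vehicle, 6.08 in oxidant vehicle 1 and 5.43 in oxidant vehicle 2, a difference of 3.52. Hspa1a, its near-identical neighbour, differed by 2.56, and probes may not tell the pair apart. The small heat shock genes Hspb8 (-1.62) and Cryab (-1.51) were lower. Of 26 kept integrated stress and unfolded protein genes 5 were higher and 1 lower, with a median of 0.09 for DRB. Against oxidant vehicle 2 that list's median was 1.33 for hydrogen peroxide and 0.97 for paraquat, and 0.27 for DRB, differences that share that control array. Of 23 kept NRF2 and antioxidant genes none was higher and 3 were lower, Gstm1 (-1.06), Keap1 (-1.05) and Gsta4 (-1.03), with a median of -0.48. 17 of the 23 were below all 3 vehicle arrays, against 33.9% of all kept genes.

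Several kinds of short RNA that are not made into protein stood high. MicroRNA genes went both ways, with 22.7% of 172 kept higher and 29.1% lower. Small nucleolar RNAs guide the modification of ribosomal and spliceosomal RNA. Of 62 kept, 49 (79.0%) were at least 2-fold higher, against 10.6% of all kept genes, and none lower, with a median of 1.67. 58 (93.5%) of the 62 were above all 3 vehicle arrays, against 34.5% of all kept genes. Snora74a was at 9.95 with DRB and 6.90 with vehicle, a difference of 3.39, and Snord104 at 11.74 with DRB and 9.15 with vehicle, a difference of 2.93. Snora75, with the largest difference (4.29, at 11.58 with DRB and 7.64 with the DRB vehicle), was also at 10.12 in oxidant vehicle 1. The Y RNA genes Rny1 and Rny3 both differed by 2.18 and Rpph1, the RNA of ribonuclease P, by 2.34. The minor spliceosome RNAs Rnu12 and Rnu11 differed by 2.40 and 2.14. Rnu11 was at 9.11 with DRB and 7.30 with the DRB vehicle, but also at 9.18 in oxidant vehicle 1. Among mitochondrially encoded genes 1 of 10 passed 2-fold, ND6 at 2.41, and the median was 0.69.

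Histone genes were also high. Of 11 kept, 7 were at least 2-fold higher, 1 was lower and the median was 1.15. H2bc18 was at 9.30 with DRB, against 5.67, 5.60 and 5.94 in the DRB vehicle and oxidant vehicles 1 and 2, a difference of 3.97. H4c1 had the largest difference of all kept genes, at 10.06 with DRB and 5.00 with vehicle, the second value being under the limit, so no fold is given. H4c9 differed by 2.97 and H2bc3 by 1.87, and H2ac21 was lower at -1.14, or at 0.18 with its probe sets averaged. Members of this family are nearly identical in sequence, so probes may be shared among them. Among the other largest rises, Iqcn was at 10.24 with DRB and 5.49 with vehicle (5.09), Phkg1, a subunit of phosphorylase kinase, at 8.65 with DRB and 5.08 with vehicle (3.91), and Trim17, a ubiquitin ligase of neurons, at 8.87 with DRB and 5.44 with vehicle (3.77). Dpep2 was at 8.45 with DRB, and its vehicle level of 4.54 was under the limit.

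Dim genes were higher with DRB as a class. Of the 1331 genes in the lowest decile of kept genes by mean level over all 34 arrays, 29.0% were at least 2-fold higher and 2.10% lower, with a median of 0.53. In the highest decile 3.23% were higher and 5.11% lower, with a median of 0.06. Olfactory receptor genes, which cortical neurons are not known for, showed it plainly: 74 of 93 kept were higher and none lower, with a median of 1.61. The same 93 had a median of 0.85 in oxidant vehicle 1 relative to oxidant vehicle 2. Their intensities summed to 8909 with DRB, 4290 with hydrogen peroxide and 3549 with paraquat, against 3667 in the DRB vehicle, 7664 in oxidant vehicle 1 and 4348 in oxidant vehicle 2. The median intensity over all probe sets was 44.8 with DRB and 44.1 with oxidant vehicle 1, and 39.6 to 40.9 on the other 4 arrays. Long non-coding RNA genes were higher in 31.7% and lower in 4.62% of 520 kept, against 8.89% and 9.71% of 12334 protein-coding genes. The part of the dim-gene shift in these counts was not tested. With each gene set against the median of its own decile of level, 1300 genes were higher and 1124 lower, and the immediate early list had a median of 2.23.

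**Figure D3:**
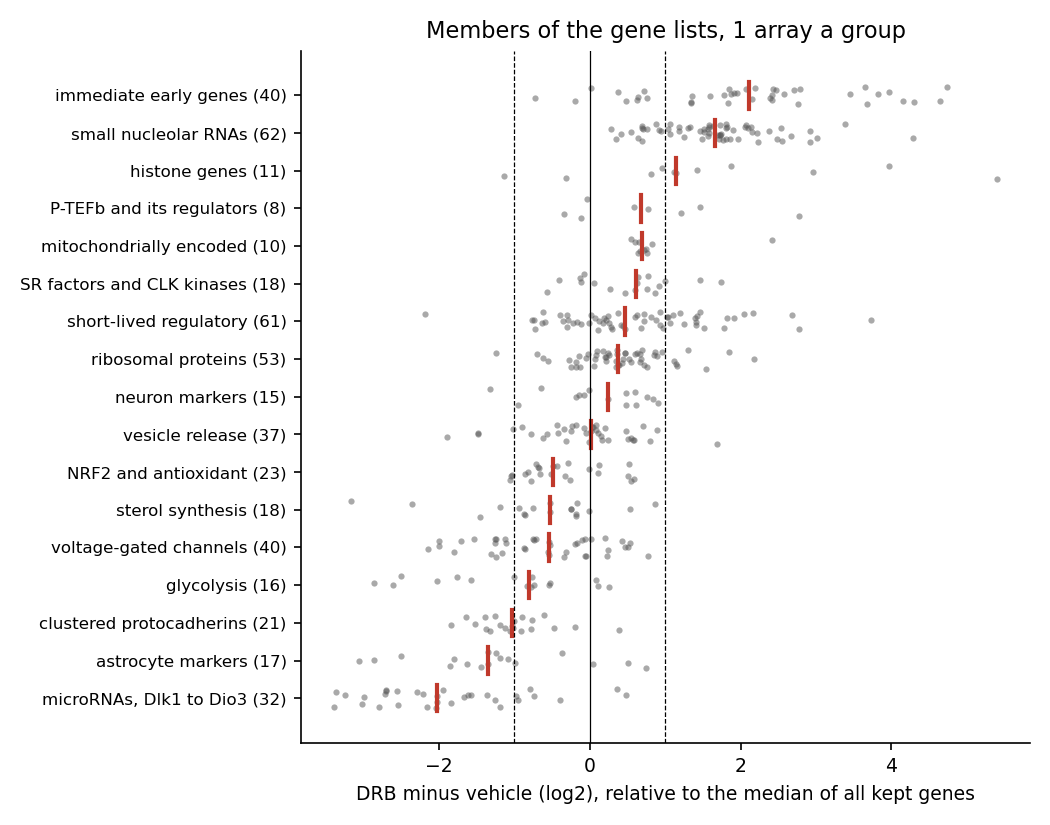
Differences (DRB minus vehicle, log2, relative to the median of all kept genes) of the members of 17 gene lists, 1 point a gene, with the list's median in red and the number kept in brackets. Dashed lines mark 2-fold; medians run between 2.11 for the immediate early genes and -2.02 for the microRNA genes between Dlk1 and Dio3.

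Astrocyte markers were the lowest of the cell type lists. In bulk RNA, fewer cells of a type and less RNA per cell cannot be told apart. Of 17 kept markers 12 were at least 2-fold lower and none higher, against 9.64% of all kept genes, with a median of -1.34. Summed intensities were 4432 with DRB, 9317 with hydrogen peroxide and 15027 with paraquat, against 13777 in the DRB vehicle, 14396 in oxidant vehicle 1 and 13178 in oxidant vehicle 2. The 3 vehicles lay close together, and the DRB array was the lowest of the 6. Aqp4, the water channel of astrocyte endfeet, was at 5.03 with DRB, 6.86 with hydrogen peroxide and 8.29 with paraquat, against 8.44, 8.07 and 8.24 in the DRB vehicle and oxidant vehicles 1 and 2, a difference of -3.06. Aldoc, the brain aldolase, differed by -2.85, Aldh1l1, a folate enzyme, by -2.50 and Slc1a3, a glutamate transporter, by -1.86. Gfap, the intermediate filament that defines the class, was at 5.76 with DRB and 7.90 with vehicle. Among the 15 largest falls, Slco1c1, a thyroid hormone transporter (-3.67), Slc38a3, a glutamine transporter (-3.60), Kcnj10, an inward rectifier potassium channel (-2.99), and Slc6a11, a GABA transporter (-2.74), are also known from astrocytes. Outside the lists used here, the falls included S1pr3 (-3.50), Sla (-3.14), Txnrd3 (-2.85), Cmpk2 (-2.82), Crym (-2.81), Fuca2 (-2.72) and Cacng3 (-2.65). Txnrd3 was below the limit with DRB, at 3.15. Cacng3 was lower still in oxidant vehicle 1, at 7.19, against 7.62 with DRB. Slc6a11 was also low in oxidant vehicle 1, at 7.65, against 7.21 with DRB and 10.29 with the DRB vehicle. The median of the marker list in the topotecan experiment was -0.65.

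Other cell type lists had medians nearer to 0 against the DRB vehicle. Of 15 kept markers of all neurons 1 was lower, Tubb3 (-1.32), and the median was 0.24. Of 16 excitatory markers 1 was higher and 1 lower. The lower one was Slc17a7, the vesicular glutamate transporter, at 7.74 with DRB, against 9.70 and 9.74 in the DRB vehicle and oxidant vehicle 2 and 5.10 in oxidant vehicle 1. Of 7 oligodendrocyte lineage markers 1 was higher, Ugt8a (1.46), and 3 were lower, among them Olig1 (5.14 with DRB and 8.04 with vehicle, -2.56). The list's median of -0.63 ran between -2.46 and 0.10 under the alternative ways of processing. Of 24 markers of proliferating cells 2 (8.33%) were higher, Cdc20 (1.23) and Mcm5 (1.02), against 10.6% of all kept genes. Another 5 (20.8%) were lower, against 9.64%, among them Nes (-1.66), Sox2 (-1.60) and Mki67 (-1.19). The list's median was -0.15. Of 18 markers of fibroblasts, meninges and mural cells 1 was higher and 2 lower, with a median of -0.46 and summed intensities of 11320 with DRB and 17831 with vehicle. None of the 18 was above all 3 vehicle arrays and 14 (77.8%) were below all 3, and against the mean of the 3 vehicles, with oxidant vehicle 1 high in these markers, the median was -1.14. Of 9 microglia markers 1 was higher and 2 lower, and of 4 endothelial markers 1 was higher and 2 lower, with Pecam1, which defines that list, at 7.03 with DRB and 5.06 with vehicle. The part of cell mixture in the differences above was not tested.

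Lists of ion channel, receptor, synaptic adhesion, vesicle release and cytoskeletal genes were set beside all kept genes, of which 10.6% were higher and 9.64% lower. Only the voltage-gated ion channels had a share of lower genes well above that of all kept genes. No list had a larger share of higher genes than all kept genes. Of 40 kept voltage-gated ion channel genes none was higher and 14 were lower, with a median of -0.55. The lowest were the potassium channel gene Kcna6 (5.59 with DRB and 8.08 with vehicle, -2.14), the calcium channel gene Cacna1i (5.96 with DRB and 8.30 with vehicle), the sodium channel gene Scn3a (5.92 with DRB and 8.26 with vehicle) and Kcna2 (-1.80). For Kcna6, Cacna1i and Kcna2 the DRB array was at 5.59, 5.96 and 6.18, and oxidant vehicle 1 was also low, at 6.22, 6.04 and 6.17. Relative to the median gene, DRB was below all 3 vehicle arrays for Kcna6 but not for Cacna1i and Kcna2. Across the list 8 of 40 were below all 3 vehicle arrays, or 20.0%, where 33.9% of all kept genes were. Of 20 glutamate receptor genes 2 (10.0%) were lower, the AMPA receptor genes Gria1 (-1.52) and Gria3 (-1.02). Gria1 was at 8.52 with DRB and also low in oxidant vehicle 1, at 8.63, against 10.38 with the DRB vehicle. Of 11 GABA receptor genes none passed 2-fold in either direction. Of 65 synaptic adhesion genes 5 (7.69%) were higher and 8 (12.3%) lower. Pcdh9 at 2.12 and Pcdh17 at 2.01 were on one side and Cntnap1 at -1.78 and Cntn2 at -1.76 on the other. Cntnap1 was lower still in oxidant vehicle 1, at 5.29, against 6.31 with DRB. Of 37 genes of vesicle release 1 (2.70%) was higher, Syt4 (1.69), and 4 (10.8%) were lower, down to Doc2b at -1.90. The list's median was 0.01. Doc2b was at 5.70 with DRB and also low in oxidant vehicle 1, at 5.39. Of 38 cytoskeletal genes 2 (5.26%) were higher and 3 (7.89%) lower. Tuba1b differed by 2.23 and Tubb4a by -2.59.

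Of 21 kept clustered protocadherins, cell surface proteins whose combinations mark single neurons, none was higher and 12 were lower, with a median of -1.03. 15 of the 21 were below all 3 vehicle arrays. Pcdhb8 was at 5.70 with DRB and 7.88 with vehicle (-1.84) and Pcdhb18 at 6.18 with DRB and 8.17 with vehicle (-1.65). Of the 21 kept, 20 are of the beta cluster, and its members are alike in sequence. Of 36 chromatin and transcription genes linked to autism 5 (13.9%) were higher, among them Chd2 (1.71), Kmt2a (1.53) and Ankrd11 (1.48). Another 3 (8.33%) were lower, among them Myt1l (-1.45). These shares lay near those of all kept genes, 10.6% higher and 9.64% lower. Cntnap2, one of the longest mouse genes, was at 7.95 with DRB and 9.59 with vehicle (-1.29) and Nlgn1, a neuroligin gene, differed by -0.47. Ube3a had probe sets that disagreed: the one used differed by 0.76, and another, brighter with vehicle, was at 8.32 with DRB and 10.15 with vehicle (-1.49).

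Of 16 kept glycolysis genes none was higher and 7 were lower, with a median of -0.80, and 11 were below all 3 vehicle arrays. Besides Aldoc these included Hk2, a hexokinase (5.37 with DRB and 8.31 with vehicle, -2.60), Pfkl, a phosphofructokinase (6.89 with DRB and 9.73 with vehicle, -2.50), and Tpi1, triose phosphate isomerase (9.03 with DRB and 11.40 with vehicle, -2.03). Gapdh differed by 0.11. Hk2 was also low in the oxidant vehicles, at 6.31 in oxidant vehicle 1 and 6.03 in oxidant vehicle 2, and its difference from oxidant vehicle 2 was -0.37. Egln3, an oxygen-sensing prolyl hydroxylase, had the lowest difference of all kept genes, at 5.47 with DRB, against 9.56, 9.02 and 8.73 in the DRB vehicle and oxidant vehicles 1 and 2 (-3.75). Of 18 kept sterol synthesis genes 4 were lower and none higher, with a median of -0.53: Nsdhl (7.42 with DRB and 10.93 with vehicle, -3.17), Mvd (-2.36), Ebp (-1.46) and Mvk (-1.19). 3 of the 18 were below all 3 vehicle arrays, and Mvd and Mvk, at 6.02 and 6.98 with DRB, were at 5.87 and 6.89 in oxidant vehicle 1. Housekeeping lists had medians within 0.37 of the median gene. Of 29 proteasome genes none passed 2-fold, and the median was -0.06, while 19 (65.5%) were below all 3 vehicle arrays. Of 53 cytosolic ribosomal protein genes 7 were higher and 1 lower, with a median of 0.37, and of 75 nuclear-encoded respiratory chain genes 2 were higher and 5 lower, with a median of -0.15, and 42 of the 75 were below all 3 vehicle arrays.

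MicroRNA genes from 1 stretch of chromosome 12 were the lowest list. The imprinted interval between Dlk1 and Dio3 holds a long cluster of microRNA genes that are transcribed in neurons from the maternal allele, within long non-coding RNAs that include Meg3 and Rian. This list was added after the values were seen. Whether these probe sets tell mature from precursor RNA is not given in the sources used here. Of 61 annotated genes 43 had a probe set, 32 were kept and 25 of those were at least 2-fold lower with DRB, none higher, with a median of -2.02. The mature RNAs of the 6 lowest are shown, from RefSeq on GRCm38.p6, to let each gene be identified, with the seed, bases 2 to 8, in capitals. MicroRNA Mir212, an activity-regulated gene outside the interval, follows them for its difference in the other direction.
miR-382-5p, chr12:109733781-109733802, plus strand: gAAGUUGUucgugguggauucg
miR-382-3p, chr12:109733819-109733840, plus strand: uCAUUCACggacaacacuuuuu
miR-377-5p, chr12:109740515-109740536, plus strand: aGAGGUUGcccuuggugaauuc
miR-377-3p, chr12:109740553-109740574, plus strand: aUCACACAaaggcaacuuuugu
miR-544-5p, chr12:109729335-109729355, plus strand: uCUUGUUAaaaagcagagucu
miR-544-3p, chr12:109729371-109729392, plus strand: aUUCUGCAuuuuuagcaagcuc
miR-453, chr12:109735669-109735692, plus strand: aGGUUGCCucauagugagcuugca
miR-493-5p, chr12:109580243-109580261, plus strand: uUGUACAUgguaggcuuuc
miR-493-3p, chr12:109580283-109580305, plus strand: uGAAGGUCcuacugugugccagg
miR-300-5p, chr12:109724318-109724339, plus strand: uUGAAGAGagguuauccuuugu
miR-300-3p, chr12:109724363-109724384, plus strand: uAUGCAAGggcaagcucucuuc
miR-212-3p, chr11:75173443-75173464, plus strand: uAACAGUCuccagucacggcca
The 11 sequences of the interval shown have 11 different seeds, and the 61 mature sequences of all 32 kept genes have 59, with 2 seeds shared by a pair each. Only identical seeds were counted. Some others are alike, such as GGUUGCC of miR-453 and GGUUACC of miR-409-5p.

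Mir453 was at 5.87 with DRB, against 9.23, 7.25 and 9.30 in the DRB vehicle and oxidant vehicles 1 and 2, a difference of -3.02. Mir382 was at 4.27 with DRB, below the limit, against 8.00, 5.94 and 8.01 in the same vehicles. Mir377 was at 3.37, also below the limit, against 7.08, 5.04 and 7.34. In all 3 the DRB array was the lowest and oxidant vehicle 1 lay between it and the other vehicles. 27 of the 32 genes were below all 3 vehicle arrays. Summed intensities over the 32 were 1850 with DRB, 5040 with hydrogen peroxide and 4579 with paraquat, against 7040 in the DRB vehicle, 2714 in oxidant vehicle 1 and 7921 in oxidant vehicle 2. The list was thus also low in the vehicle with few excitatory neuron transcripts: its median in oxidant vehicle 1 relative to oxidant vehicle 2 was -1.46. In the topotecan experiment it was -1.42. Of the long transcripts of the interval, Rian was at 9.40 with DRB and 10.73 with vehicle (-0.98), Meg3 at 6.09 with DRB and 6.05 with vehicle (0.38) and Dlk1 at 6.70 with DRB and 6.91 with vehicle (0.13), all within 2-fold.

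**Figure D4:**
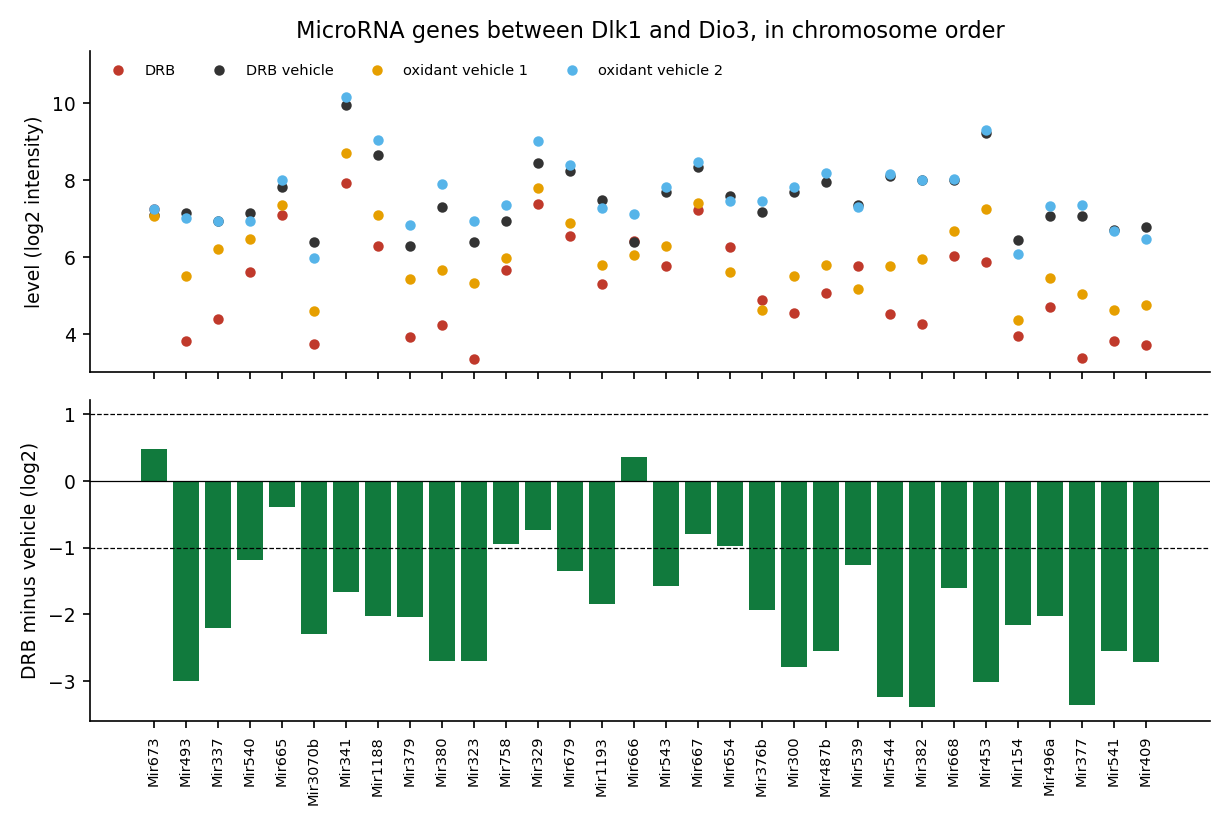
The 32 kept microRNA genes between Dlk1 and Dio3 in chromosome order. The upper panel shows the level (log2 intensity) on the DRB array and the 3 vehicle arrays, the lower panel DRB minus its vehicle (log2, relative to the median of all kept genes); 25 bars pass the dashed 2-fold line downward and none passes it upward.

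Outside the interval 140 microRNA genes were kept, of which 39 were higher and 25 lower, with a median of 0.39. Mir212 was at 8.64 with DRB, against 6.02, 5.69 and 5.52 in the 3 vehicles, a difference of 2.96. Mir9-2, a gene of the brain microRNA miR-9, was at 4.38 with DRB, below the limit, and at 8.22 with vehicle. Mir101c differed by 3.76, and oxidant vehicle 1 was also high for it, at 9.79, against 10.33 with DRB and 6.92 with the DRB vehicle.

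Gene length was compared because topotecan, the topoisomerase 1 inhibitor studied on the same array type, is known for lowering long genes. With DRB 19.1% of the 3588 genes under 10 kb were at least 2-fold higher and 9.84% lower. Of the 840 genes over 200 kb 5.71% were higher and 10.0% lower. Median differences with DRB were 0.15 under 10 kb, -0.03 from 10 to 100 kb, -0.12 from 100 to 200 kb and -0.14 over 200 kb. With topotecan at 1 µM the medians over the same genes were 0.07, 0.01, -0.19 and -0.68. Genes over 100 kb were set against the rest by the gap in mean log2 intensity, which was 0.41 with DRB, against 0.57 in the DRB vehicle, 0.36 in oxidant vehicle 1 and 0.54 in oxidant vehicle 2, so the DRB array lay within the range of the vehicles. It was -0.027 ± 0.033 with topotecan and 0.472 ± 0.029 in its vehicle (SD, n = 6 each). Top1, topotecan's target, differed by 0.20 with DRB and Top2b, which encodes another topoisomerase, by 0.64, both within 2-fold. Across the 13308 genes the DRB differences correlated with those of topotecan at Pearson's r = 0.28, with oxidant vehicle 1 minus oxidant vehicle 2 at 0.26, with hydrogen peroxide at 0.17 and with paraquat at -0.03. These are correlations across genes of single arrays or group means, the hydrogen peroxide, paraquat and vehicle differences share oxidant vehicle 2, and genes are not independent replicates.

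**Figure D5:**
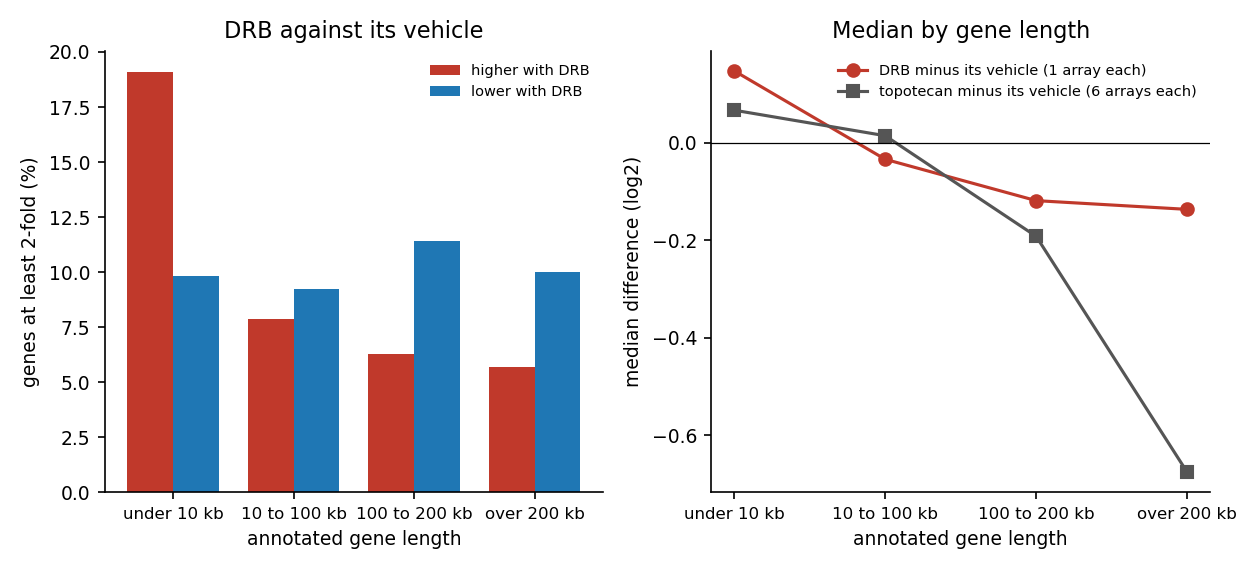
Left, share of genes at least 2-fold higher or lower with DRB by annotated gene length (percent of 3588, 7703, 1148 and 840 genes). Right, median difference by length class for DRB minus its vehicle (1 array each) and topotecan at 1 µM minus its vehicle (6 arrays each), log2 relative to the median of all kept genes; the classes over 200 kb are at -0.14 and -0.68.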

How the data were processed

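The authors deposited RMA values made with Affymetrix Expression Console, per the submitters' processing notes, as intensities on a linear scale, with versions, annotation and the grouping of arrays for normalization not given in the sources used here. The deposited intensity of each probe set was turned to log2, since the plan had assumed log2 values. Of 41345 probe sets, 23521 have 1 gene symbol, 1814 several and 16010 none; IDs matched RefSeq genes of GRCm38.p6 for 99.2%. The brightest probe set by mean over 34 arrays stood for a gene, and a floor at the 40th percentile of the mean level (5.01) kept 13308 of 22180 genes. Differences are relative to the median gene and called at 2-fold. Python 3.11.15, pandas 2.3.3 and numpy 2.4.6 were used, and the steps were tested on simulated data. The members and gene lists were chosen with earlier results of these data known, and the lists of olfactory and vomeronasal receptors, mitochondrially encoded genes and microRNA genes inside and outside the Dlk1 to Dio3 interval were added after these values were seen. Named are the 15 largest rises and 15 largest falls among genes with an official name. Other names come from up to 4 members of each list past 2-fold in each direction, and from a fixed set of transcription, neuronal and control genes. Not all of these are printed, and some lists are not described. A gene at the end of a range, or named for its promoter or as a threshold neighbour, is named for that place. 1 array a group limits the precision, and no test was run. Promoters and microRNAs are RefSeq's.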

Additional observations from a re-analysis of the deposited data

Results flagged for a closer look

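Probe sets without a single gene symbol lie outside the comparison above. Of 8089 such probe sets above the limit, 2337 were at least 2-fold higher with DRB and 706 at least 2-fold lower, with a median difference of 0.40. Of the 13308 kept genes, 1414 (10.6%) were higher and 1283 (9.64%) lower. Between the DRB vehicle and oxidant vehicle 2 the same probe sets gave 106 higher and 520 lower. They were not counted against oxidant vehicle 1, whose median intensity over all probe sets, 44.1, was near the 44.8 with DRB.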

How the results depend on the processing

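No paired analysis was possible because each group has 1 array. The counts of 1414 higher and 1283 lower genes became 2227 and 2728 with no filter on dim genes, 726 and 833 with a 60th percentile filter, 808 and 2499 as deposited, 2819 and 2865 at 1.5-fold and 270 and 115 at 4-fold. Under the other alternatives (mean of the 3 vehicles, oxidant vehicle 2 alone or averaged with the DRB vehicle, the filter taken over the DRB and vehicle arrays alone, other probe set rules, new quantile normalization, a pseudocount of 16, centring within deciles of level) they were 1120 to 1608 and 940 to 1307. The immediate early median of 2.11 was 1.78 with no filter, 2.29 with the 60th percentile filter, 1.77 as deposited, 2.00 with the pseudocount, 2.31 against oxidant vehicle 2 and 2.23 within deciles of level. The small nucleolar RNA median of 1.67 was 1.14 with no filter and 1.32 as deposited. The median of genes over 200 kb minus that of genes under 10 kb, -0.28, was -0.61 with no filter, -0.14 against the mean of the 3 vehicles and -0.12 with the 60th percentile filter, and -0.20 to -0.34 otherwise. The median of genes over 200 kb alone, -0.14, was 0.0017 against the mean of the 3 vehicles. Of 10 lists with a median past 2-fold, 10 kept their sign under all 12 alternatives that apply. Igf2 (1.17) was -0.19 against the mean of 3 vehicles, H2ac21 (-1.14) was 0.18 as the mean of its probe sets, and Trem2 (-1.01) was 0.15 against oxidant vehicle 2. Oxidant vehicle 2 and deciles of level were added after seeing the data. The causes were not tested.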

Other observations

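Dim genes that follow a brighter gene on the same strand were picked out with the values in view and are described only. Among genes below the median level whose upstream neighbour was above it, on the same strand and less than 10 kb away, 54 of 337 were at least 2-fold higher with DRB and 9 (2.67%) at least 4-fold. With the neighbour on the opposite strand and as close, 33 of 410 (8.05%) and 2 (0.488%) were. With the neighbour on the same strand but 10 kb or more away, 49 of 375 (13.1%) and 10 (2.67%) were, the same share at 4-fold as for close neighbours. Iqcn, second among the largest rises, follows Jund on the same strand. By level alone, 29.0%, 16.7%, 12.9%, 8.72% and 8.56% of genes were higher in deciles 1 to 5 of level, the dimmer genes. The part of level in the neighbour counts was not tested.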
